A study of Mus musculus with 35 samples.

Results

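A group of 8 transcripts of the canonical WNT pathway were followed through the conversion of mouse embryonic stem (ES) cells into primitive endoderm (PrE), the tissue that lines the blastocyst cavity and gives rise to the yolk sac. They are Dkk1, a secreted antagonist, Axin2 and Nkd1, which act as feedback inhibitors inside the cell, Sp5, a zinc finger factor encoded by a WNT target gene, and the 4 TCF/LEF factors Tcf7l1, Tcf7l2, Tcf7 and Lef1. They were taken by gene symbol, 8 of the 44853 genes of the induction table, and 5 of them (Dkk1, Axin2, Nkd1, Tcf7 and Tcf7l2) were also among the 6275 genes of the siRNA table. That second table was limited by the study to genes it had called responsive to GATA6, a choice that used the induction libraries.

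The induction series held 3 libraries each of KH2 ES cells (C57BL/6 x 129/Sv) carrying a Dox-inducible Gata6 transgene, taken without Dox (0 h) or after 16, 24, 48, 72, 96 or 168 h in 1 µg/mL doxycycline (Dox). It also held 2 libraries of wild type X10 XEN cells, a PrE-derived line of CD1 background that received no Dox and was grown without LIF. The siRNA series held 6 libraries with non-targeting siRNA (siCTL) and 6 with Oct4 siRNA (siOct4), all of the same inducible cells, of 1 clone, collected 48 h after nucleofection and plating in 1 µg/mL Dox. ES cells were grown with serum and LIF on feeder fibroblasts, which were depleted by adsorption before lysis, so the XEN comparisons also differ in strain, LIF and transgene. The transgene is driven by Dox and not by the native Gata6 promoter, and gene-level values do not separate its transcripts from those of the native gene.

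Values are in TPM, transcript abundance scaled for transcript length and for the total of the library, so levels of different genes can be set side by side. The study's methods describe the libraries of a condition as independent replicates, without saying whether they were separate cultures, clones or days. Gata6 lay between 0.193 and 0.375 TPM in the 0 h libraries and between 129 and 138 TPM at 16 h. The summed level of 8 PrE markers ranged from 30.7 to 43.1 TPM at 0 h and from 5983 to 6326 TPM at 168 h, while that of 8 ES cell markers ranged from 3072 to 3299 TPM at 0 h and from 91.1 to 165 TPM at 168 h. Libraries numbered 3 stood apart within their time points. Their median absolute log2 difference from library 1 or 2 was 0.123 to 0.308, against 0.0941 to 0.13 between libraries 1 and 2, and they held 13.4 to 34.9 TPM of the fibroblast marker Thy1, against 1.20 to 4.75 TPM in libraries 1 and 2. Prrx1 (3.47 to 8.73 against 1.59 to 4.93 TPM) and Twist2 (0.599 to 1.71 against 0.243 to 1.28 TPM) overlapped between them. The summed feeder markers were highest in library 3 at every Dox time and at 0 h except at 96 h, when it held 80.5 TPM against 118 and 114 TPM. Whether libraries numbered 3 were a separate batch or clone is not in the labels and was not tested. The summed level of the 10 feeder fibroblast markers was 37.7 to 114 TPM at 0 h and 131 to 284 TPM at 168 h. Among the markers, Dcn was above 0 in all induction libraries and Lum was listed at 0 in some. Calls of members that change when a library numbered 3 is left out are given beside the result.

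In the canonical pathway, WNT proteins bind Frizzled receptors together with the co-receptors LRP5 and LRP6. This stops a cytoplasmic complex built on Axin from marking beta-catenin for destruction, and beta-catenin then enters the nucleus and binds TCF/LEF factors, which without it act largely as repressors. Tcf7l1 is the main repressor of this family in mouse ES cells, whereas Tcf7 and Lef1 are known mostly as activating partners of beta-catenin. Several target genes encode inhibitors of the pathway, so their transcripts serve both as readouts and as brakes.

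The promoters of Dkk1, Axin2 and Sp5 are shown because the first pair rose within 16 h of Dox while Sp5 was lower at every time. The sequences are the 250 bases before the annotated start, from RefSeq on GRCm38.p6, written 5′ to 3′ on the strand of the gene. Capitals mark matches on either strand to the TCF/LEF letters, which are CTTTGAA with its variants CTTTGAT as well as CTTTGTA and likewise CTTTGTT, and to the GATA letters, which are AGATAA and also TGATAA. They lie at chr19:30549497-30549746 (minus strand) for Dkk1, chr11:108920099-108920348 (plus strand) for Axin2 and chr2:70474673-70474922 (plus strand) for Sp5.
Dkk1: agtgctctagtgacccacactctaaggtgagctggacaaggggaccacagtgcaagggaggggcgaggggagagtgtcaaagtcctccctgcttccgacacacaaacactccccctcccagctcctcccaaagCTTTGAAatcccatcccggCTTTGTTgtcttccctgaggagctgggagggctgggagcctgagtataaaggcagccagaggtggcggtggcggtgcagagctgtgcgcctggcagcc
Axin2: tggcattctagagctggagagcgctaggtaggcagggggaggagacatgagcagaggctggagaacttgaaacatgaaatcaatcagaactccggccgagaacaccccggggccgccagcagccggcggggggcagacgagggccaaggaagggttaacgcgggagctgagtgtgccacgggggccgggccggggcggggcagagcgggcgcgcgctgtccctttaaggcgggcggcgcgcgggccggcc
Sp5: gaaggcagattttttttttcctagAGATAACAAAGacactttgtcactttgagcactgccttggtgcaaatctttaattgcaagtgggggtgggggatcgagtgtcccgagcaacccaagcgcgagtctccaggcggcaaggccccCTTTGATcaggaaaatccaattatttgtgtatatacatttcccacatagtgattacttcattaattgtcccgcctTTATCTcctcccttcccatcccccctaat

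With the RefSeq start as base 0, the Dkk1 promoter held CTTTGAA from base -117 to -111 and CTTTGTT from base -98 to -92. Both were on the strand of the gene, and no GATA match was present. In GENCODE M21 the Dkk1 gene model starts at chr19:30549665, inside the bases shown, so both matches lie within that model. Axin2 and Sp5 have the same start in both annotations. The Axin2 window held neither. The Sp5 promoter held 2 TCF/LEF matches and 2 GATA matches, and its first AGATAA, which starts at base -226, shares letters with a CTTTGTT on the opposite strand that starts at base -222. The whole 300-base windows, with 50 bases after the start, were searched for all genes, and 16.9% of 32851 held at least 1 TCF/LEF match, 1.94% at least 2, 18.6% at least 1 GATA match and 3.26% at least 2. All 8 members had a window in that table, 13 in all, and 9 of the 13 held no TCF/LEF match. Matches describe letters in these windows only, and a window without them says nothing about binding elsewhere.

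Dkk1, whose protein captures LRP5 and LRP6 and so blocks WNT reception, rose more than any other member. The gene lies at chr19:30545863-30549665 on the minus strand of mm10. It was almost silent at 0 h, with 0.0609, 0.132 and 0.0304 TPM in the 3 libraries. At 16 h it stood at 22.9, 20.4 and 20.2 TPM, at 24 h at 49.6, 50.9 and 27.1 TPM, and at 48 h at 76.4, 89.1 and 55.2 TPM. The 0 h libraries lay far below all others. Against 0 h, limma with Benjamini-Hochberg adjustment over all genes gave a log2 difference on the log2(TPM + 1) scale of 4.37 ± 0.23 (SE) at 16 h (adjusted p = 6.06e-11) and 6.09 ± 0.23 at 48 h (adjusted p = 9.14e-14). Because 1 TPM is added before the logarithm, these differences understate the change of a gene that starts near 0.

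Between 48 and 96 h no step of Dkk1 was called, and it fell late. It reached 46.6, 50.8 and 90.9 TPM at 72 h, 63.8, 59.0 and 58.1 TPM at 96 h, and 20.3, 23.5 and 19.9 TPM at 168 h, against 33.3 and 32.3 TPM in the XEN libraries. The high 72 h value belongs to library 3, as does the low 24 h value. From 96 to 168 h Dkk1 fell by 1.47 on the log2 scale (SE 0.23, adjusted p = 4.18e-05), and no 168 h library overlapped the 96 h libraries. XEN cells were 0.61 ± 0.25 above 168 h cells, which was short of the threshold (adjusted p = 0.0523). In order of mean level the groups ran 48, 72, 96 and 24 h, XEN, 168, 16 and 0 h, and of these neighbours 48 and 72 h, 72 and 96 h, 24 h and XEN, and 168 and 16 h overlapped. Dkk1 passed the call at all 6 Dox times, and with any 1 library left out. The step from 16 to 24 h, 0.92 ± 0.23 (adjusted p = 0.0337), was not called with all libraries but was without the 24 h library 3 (1.21, adjusted p = 0.00255).

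Axin2, a scaffold protein of the destruction complex and a widely used readout of WNT signalling, rose early only. It lies at chr11:108920349-108950783 on the plus strand. The 0 h libraries held 3.59, 3.84 and 8.84 TPM. At 16 h the values were 21.0, 21.0 and 18.8 TPM and at 24 h 18.0, 16.2 and 18.7 TPM, all above every 0 h library. The log2 difference from 0 h was 1.82 ± 0.23 at 16 h (adjusted p = 1.50e-05) and 1.62 ± 0.23 at 24 h (adjusted p = 2.42e-05) by limma. At 48 h the libraries held 8.27, 9.06 and 10.9 TPM, overlapping the 0 h range, with a difference of 0.78 ± 0.23 (adjusted p = 0.00746) that did not reach the minimum of 1 set for a call.

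From 72 h on Axin2 was near or below its starting level. Its mean TPM was 4.32 after 72 h, 3.27 after 96 h, 4.71 after 168 h and 2.84 in XEN cells, and no difference of these groups from 0 h was called. The steps from 24 to 48 h and from 48 to 72 h were -0.84 ± 0.23 (adjusted p = 0.00725) and -0.97 ± 0.23 (adjusted p = 0.00407), both under the fold minimum. The second of these steps was called after rescaling (-1.003), with a pseudocount of 0.1 TPM (-1.10) and without the 48 h library 1 or the 72 h library 3 (-1.05 each). In order of level, 16 h stood above 24 h and 24 h above 48 h without overlap, and the ranges of 48 h, 0 h, 168 h and 72 h overlapped in turn.

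The 0 h value of library 3 was above the other two, so the size of the Axin2 rise depended on it. Within libraries numbered 1 and 2 the log2 difference between 16 h and 0 h was 2.26 and 2.18, and within library 3 it was 1.01. Without the 0 h library 3 the difference was 2.17 (adjusted p = 1.72e-07) at 16 h and 1.13 (adjusted p = 5.20e-05) at 48 h, which is then called. The same omission turned the 72 h difference from -0.19 to 0.17 and the 168 h difference from -0.11 to 0.24, with adjusted p of 0.449 and 0.244. That library also held more Thy1, as given above, and the part of feeder cells in its Axin2 level was not tested.

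Nkd1, which binds Dishevelled and dampens WNT signalling, followed a lower and later course. The gene lies at chr8:88521354-88594884 on the plus strand. Its values were 0.538, 0.457 and 0.791 TPM at 0 h, 1.48, 1.39 and 1.71 TPM at 24 h, 1.43, 1.87 and 1.62 TPM at 48 h, and 0.224, 0.396 and 0.588 TPM at 168 h. Every 24 and 48 h library was above every 0 h library. The log2 differences of 0.67 ± 0.11 at 24 h (adjusted p = 0.000182) and 0.73 ± 0.11 at 48 h (adjusted p = 2.31e-05) were under the fold minimum, so Nkd1 was called at no time. On a scale with a pseudocount of 0.1 TPM they were 1.25 and 1.34 and were called. Nkd1 passed the filter of 1 TPM only through its 24 and 48 h means of 1.53 and 1.64 TPM. A higher level at these times is thus partly built into its selection for the test. XEN cells held 0.202 and 0.091 TPM.

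Sp5 encodes a transcription factor that is switched on by WNT signalling and restrains other targets. The gene lies at chr2:70474923-70477729 on the plus strand. It was low throughout, with 0.853, 1.23 and 1.55 TPM at 0 h, 0.284, 0.507 and 0.426 TPM at 16 h and 0.233, 0.142 and 0.162 TPM at 24 h. It was listed at 0 in all libraries of 72 and 168 h, and at most at 0.0607 TPM in the remaining libraries of 48 h, 96 h and XEN cells. The difference from 0 h was -0.64 ± 0.11 at 16 h (adjusted p = 0.000287) and -0.90 ± 0.11 at 24 h (adjusted p = 3.09e-06), neither called. With a pseudocount of 0.1 TPM these 2 were -1.36 and -2.21 and were called, so the call depends on the pseudocount at this low level. The difference reached -1.11 ± 0.11 at 48 h (adjusted p = 4.72e-08) and -1.13 ± 0.11 at 168 h (adjusted p = 1.06e-08). Sp5 passed the filter of 1 TPM only through its 0 h mean of 1.21 TPM, so a lower level elsewhere is partly built into its selection for the test. Without the 0 h library 3 the differences at 48 h and in XEN cells were -0.999 and -0.98 and were not called.

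**Figure D1:**
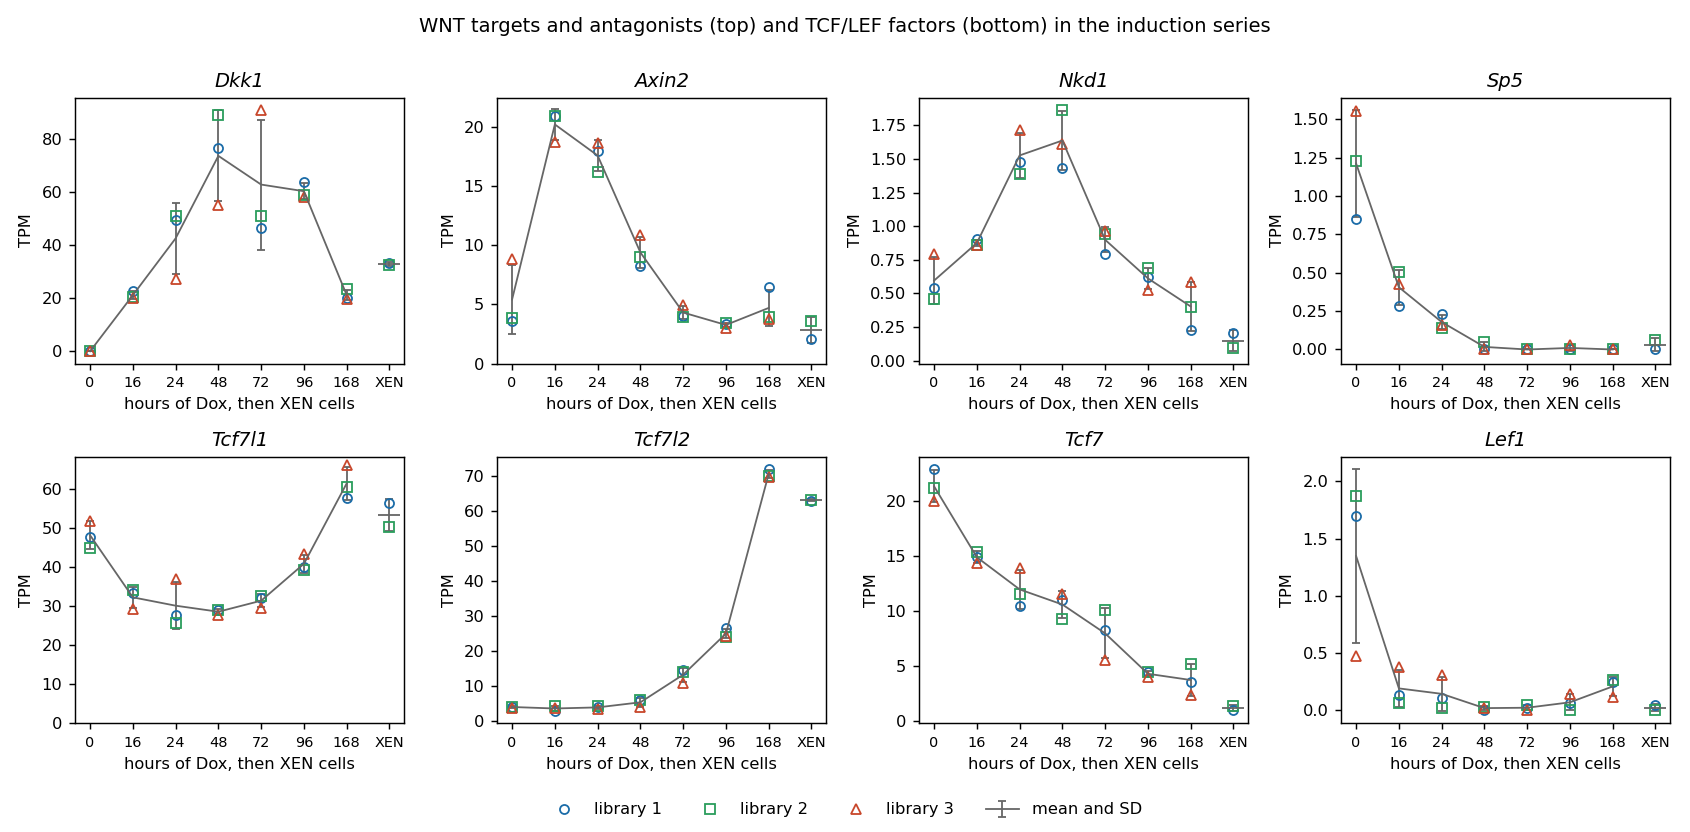
TPM of the 8 genes in each library (markers by library number) with group means and SD (lines and bars) over 0 to 168 h of Dox, spaced evenly and not to scale in time, and in XEN cells, each panel on its own linear axis. Dkk1 leaves its 0 h level by 16 h and peaks at 73.6 TPM at 48 h, Axin2 peaks at 20.2 TPM at 16 h, and Tcf7l2 climbs to 70.5 TPM at 168 h while Tcf7 declines to 3.70 TPM.

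Among the TCF/LEF factors, Tcf7l1 was the most abundant at 0 h and was lower at intermediate times without reaching a call. The gene lies at chr6:72626378-72789254 on the minus strand. Its values were 47.6, 44.7 and 51.8 TPM at 0 h, 28.9, 29.0 and 27.6 TPM at 48 h, 39.8, 39.1 and 43.3 TPM at 96 h, and 57.7, 60.3 and 65.9 TPM at 168 h. The 48 h libraries lay below and the 168 h libraries above all 0 h libraries. The log2 difference from 0 h was -0.73 ± 0.10 at 48 h (adjusted p = 7.93e-06) and 0.35 ± 0.10 at 168 h (adjusted p = 0.00584), neither past the fold minimum. After median-of-ratios rescaling the 48 h difference was -0.76 (adjusted p = 1.48e-06 by limma). That of 168 h was then 0.16 and no longer under the adjusted p threshold (adjusted p = 0.127 by limma). The step from 96 to 168 h was 0.58 ± 0.10 (adjusted p = 0.00021). XEN cells held 56.2 and 50.2 TPM, which overlapped the 0 h range.

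Tcf7l2, the family member best known from endoderm-derived epithelia, rose late. The gene lies at chr19:55741820-55933654 on the plus strand. It stayed at 4.11, 4.16 and 3.85 TPM at 0 h and 3.91, 4.27 and 3.60 TPM at 24 h, which overlap. It reached 14.7, 14.0 and 11 TPM at 72 h, 26.5, 24.0 and 24.4 TPM at 96 h, and 71.8, 69.9 and 69.7 TPM at 168 h, and from 72 h on no library overlapped the 0 h libraries. The differences from 0 h were 1.49 ± 0.13 at 72 h (adjusted p = 9.64e-09) and 3.83 ± 0.13 at 168 h (adjusted p = 5.04e-15), the latter the largest difference of any member at 168 h after Dkk1. Single steps were called from 48 to 72 h, at 1.17 ± 0.13 (adjusted p = 5.93e-06), and from 96 to 168 h, at 1.46 ± 0.13 (adjusted p = 9.33e-08). Without the 48 h library 3 the first of these steps was 0.997 and no longer called. XEN cells, at 62.8 and 63.1 TPM, lay just under the 168 h libraries without a called difference (-0.16 ± 0.15, adjusted p = 0.4).

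Tcf7 ran the other way. Located at chr11:52252371-52283014 on the minus strand, it held 22.8, 21.1 and 19.9 TPM at 0 h, 14.9, 15.4 and 14.3 TPM at 16 h, 8.23, 10.04 and 5.55 TPM at 72 h, and 3.56, 5.20 and 2.35 TPM at 168 h. All later libraries were below all 0 h libraries. The difference from 0 h was -0.49 ± 0.19 at 16 h (adjusted p = 0.101), -1.35 ± 0.19 at 72 h (adjusted p = 3.65e-06) and -2.29 ± 0.19 at 168 h (adjusted p = 1.56e-09). At 48 h it was -0.95 ± 0.19 (adjusted p = 0.000282), which was called only without the 48 h library 3 (-1.01), with libraries 1 and 2 alone (-1.06) or with a pseudocount of 0.1 TPM (-1.01). XEN cells held 0.971 and 1.37 TPM, a further -1.08 ± 0.21 from 168 h (adjusted p = 0.00032). This last call was lost after median-of-ratios rescaling of the libraries (-0.95) and without the 168 h library 2 (-0.86) or the XEN library 1 (-0.95).

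Lef1 was the least abundant factor. The gene lies at chr3:131110471-131224356 on the plus strand. It held 1.70, 1.87 and 0.477 TPM at 0 h, 0.132, 0.0608 and 0.375 TPM at 16 h and at most 0.0405 TPM at 48 and 72 h. All later libraries were below all 0 h libraries, and the lowest 0 h value was that of library 3. The difference from 0 h was -0.93 ± 0.18 at 16 h (adjusted p = 0.0014), -1.15 ± 0.18 at 48 h (adjusted p = 2.54e-05) and -0.90 ± 0.18 at 168 h (adjusted p = 0.000169), so that the call was passed at 48, 72 and 96 h and in XEN cells, and not at 16, 24 or 168 h. Without the 0 h library 3 the 16, 24 and 168 h differences were -1.23, -1.29 and -1.21 and were called too. The 16 h difference was also called without the 16 h library 3 (-1.04), and that of 24 h without the 24 h library 3 (-1.09) and after rescaling (-1.007). Without the 0 h library 2 those of 48 and 72 h were -0.97, that of 96 h -0.90 and that of XEN cells -0.97, and none was called. The 96 h call was also lost without the 0 h library 1 (-0.95). Like Sp5, Lef1 passed the filter only through its 0 h mean, 1.35 TPM.

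The make-up of the family by share differed between early and late times, as did its total. The 4 transcripts summed to 74.7 ± 2.47 TPM before Dox, 44.4 ± 1.37 after 48 h and 136 ± 2.41 after 168 h (SD, n = 3 each). Tcf7l1 made up 64.3% ± 3.33 of the sum before Dox, 64.1% ± 1.13 after 48 h and 45.2% ± 2.3 after 168 h (SD, n = 3 each). Tcf7l2 went from 5.41% ± 0.367 before Dox through 12.1% ± 2.53 after 48 h and 35.6% ± 1.74 after 96 h to 52.0% ± 1.73 after 168 h (SD, n = 3 each). Tcf7 went from 28.5% ± 2.01 before Dox to 2.74% ± 1.07 after 168 h (SD, n = 3 each), and Lef1 from 1.82% ± 1.05 to 0.153% ± 0.0627. The ratio of Tcf7l2 to Tcf7l1 was 0.0846 ± 0.00953 before Dox and 1.15 ± 0.0933 after 168 h (SD, n = 3 each), and all 3 libraries at 168 h were above 1. XEN cells had a Tcf7l2 share of 53.7% and a Tcf7l1 share of 45.3% (n = 2), with ranges that overlapped those of the 168 h libraries. Shares are described without a test, since each follows from the levels already compared. Gene models that overlap on the same strand were annotated for Lef1, Tcf7, Tcf7l1, Tcf7l2 and Nkd1. RSEM estimates how reads are divided among such models, so part of these values is an estimate.

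**Figure D2:**
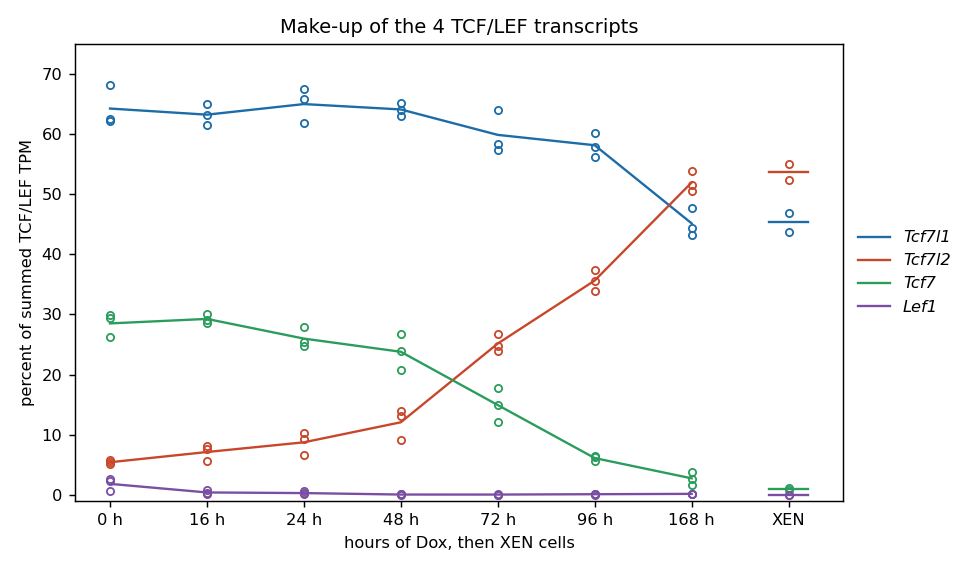
Percent of the summed TPM of Tcf7l1, Tcf7l2, Tcf7 and Lef1 held by each factor in every library (circles) with group means (lines), over 0 to 168 h of Dox, spaced evenly, and in XEN cells. Tcf7l2 passes Tcf7 at 72 h and Tcf7l1 at 168 h, when it reaches 52.0%, and Tcf7 declines from 28.5% to 2.74%.

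The counts of members called have to be read against how many genes changed in all, since the share of all 15057 tested genes that was called grew with time. At 16 h 2 of 8 members were called, both higher, against 2.77% of all genes, and at 24 h again 2, both higher, against 5.68%. At 48 h 3 were called (1 higher, 2 lower) against 16.4%, at 72 h 5 (2 higher, 3 lower) against 26.2% and at 96 h 5 (2 higher, 3 lower) against 29.5%. At 168 h 4 were called (2 higher, 2 lower) against 39.1%, and in XEN cells against 0 h 5 (2 higher, 3 lower) against 37.6%. Sp5 and Lef1, tested only because of their 0 h level, are both of the lower calls at 48 h, and are 2 of the 3 at 72 h, 96 h and in XEN cells, so nothing is read from these lower counts. Dkk1, with a mean of 0.0744 TPM at 0 h, passed the filter only through other groups and is among the higher calls against 0 h throughout. With 8 genes, no excess over all genes was tested. Between XEN and 168 h cells 1 member, Tcf7, was called, against 13.9% of genes (712 higher and 1380 lower, or 924 and 1065 after rescaling, which moved the median of all genes from -0.14 to -0.02). Over consecutive times, no member was called from 16 to 24 h (0.352% of genes), from 24 to 48 h (5.56%) or from 72 to 96 h (1.71%), 1 from 48 to 72 h (3.33%) and 2 from 96 to 168 h (7.67%, with 787 genes higher and 368 lower, or 592 and 510 after rescaling). These comparisons share libraries and are not independent of each other.

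The siRNA libraries were all taken at 48 h of Dox, so siOct4 and siCTL were compared at that time only. Axin2 was called higher against 0 h at 16 and 24 h, and Tcf7l2 from 72 h on. The comparison does not cover those times and cannot tell whether these changes involve Oct4. Pou5f1, which encodes Oct4, lay between 782 and 1194 TPM in the siCTL libraries and between 282 and 387 TPM in the siOct4 libraries, lower in 6 of 6 numbered pairs, by a log2 difference of -1.34 to -1.74. The two-sided exact permutation test gave p = 0.00216 and the paired exact sign-flip test p = 0.0312, each the smallest p that its design allows.

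Dkk1 was the one member that passed the test with siOct4. The siCTL libraries 1 to 6 held 53.7, 57.7, 66.1, 120, 82.0 and 77.2 TPM (lowest 53.7, median 71.6, highest 120) and the siOct4 libraries 22.9, 20.8, 38.2, 42.4, 45.3 and 43.2 TPM (lowest 20.8, median 40.3, highest 45.3). Every siOct4 library was below every siCTL library. Groups that did not overlap, in either direction, were found for 2.63% of the 6264 genes tested in this table. Dkk1 fell by 1.09 on the log2 scale (SE 0.24), with an adjusted p of 0.027 by limma, and was lower in 6 of 6 pairs. Of all genes tested there 2.67% were called, 59 higher and 108 lower, and 144 higher and 153 lower after median-of-ratios rescaling, under which Dkk1 was still called at -0.94 (adjusted p = 0.0294). Rescaling moved the median of all genes from -0.12 to 0.01. Its factors came only from the genes of this table, which the study had selected and whose columns sum to 274527 to 355895 TPM. A shift shared by most of these genes would be removed by it. When the numbered pairs entered as a replicate block, 8.57% of genes were called, and the adjusted p of Dkk1 was 0.000817. Without the block the call was lost when siCTL library 5 or 6 or siOct4 library 1 or 2 was left out, with adjusted p between 0.0576 and 0.0684. With the replicate block it held when any 1 pair was left out, at differences of -1.01 to -1.15. The siCTL library 3 stood apart from its group, and without it Dkk1 differed by -1.12 (adjusted p = 0.0233). Some consecutive libraries were close to each other, and with libraries 1 and 2, 3 and 4, and 5 and 6 averaged the adjusted p of Dkk1 was 0.288, or 0.00779 with the block.

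Levels of other genes also differed between these libraries. Sox17, a PrE marker, ranged from 27.5 to 60.7 TPM in siOct4 and from 35.6 to 66.3 TPM in siCTL libraries. It was lower with siOct4 in pairs 1, 2 and 4 and higher in pairs 3, 5 and 6. Gata6 was lower in 6 of 6 pairs, by a log2 difference of -0.05 to -1.11, and the summed PrE markers ranged from 1081 to 2135 TPM in siOct4 and from 1777 to 4559 TPM in siCTL libraries. The 7 ES cell markers of this table, Pou5f1 among them, summed to 353 to 606 TPM and 926 to 1498 TPM. The 5 feeder fibroblast markers present ranged from 27.8 to 213 TPM in siOct4 and from 26.1 to 210 TPM in siCTL libraries, and Dcn from 0.809 to 5.04 TPM and from 1.21 to 11.7 TPM. The part of any of these in the Dkk1 difference was not tested, and in bulk RNA fewer induced cells cannot be told apart from less Dkk1 transcript per cell.

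The other 4 members measured did not pass the test. Axin2 ranged from 1.84 through a median of 6.35 to 7.58 TPM in siCTL and from 1.68 through 3.65 to 5.44 TPM in siOct4 libraries, with overlapping ranges. Its difference was -0.54 ± 0.29 (adjusted p = 0.464, or 0.0746 when blocked by pair), although it was lower in 6 of 6 pairs. Tcf7 ranged from 3.72 to 12.4 TPM in siCTL and from 2.32 to 8.60 TPM in siOct4 libraries (-0.41 ± 0.32, adjusted p = 0.641). Tcf7l2 ranged from 3.77 to 11.2 TPM in siCTL and from 5.08 to 18.4 TPM in siOct4 libraries and was lower in 1 of 6 pairs (0.47 ± 0.32, adjusted p = 0.588). With the replicate block and rescaling together Tcf7l2 was called, at 0.61 (adjusted p = 0.0149), whereas with the block alone it was not (adjusted p = 0.138). Nkd1 differed by -0.13 ± 0.20 (adjusted p = 0.836).

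**Figure D3:**
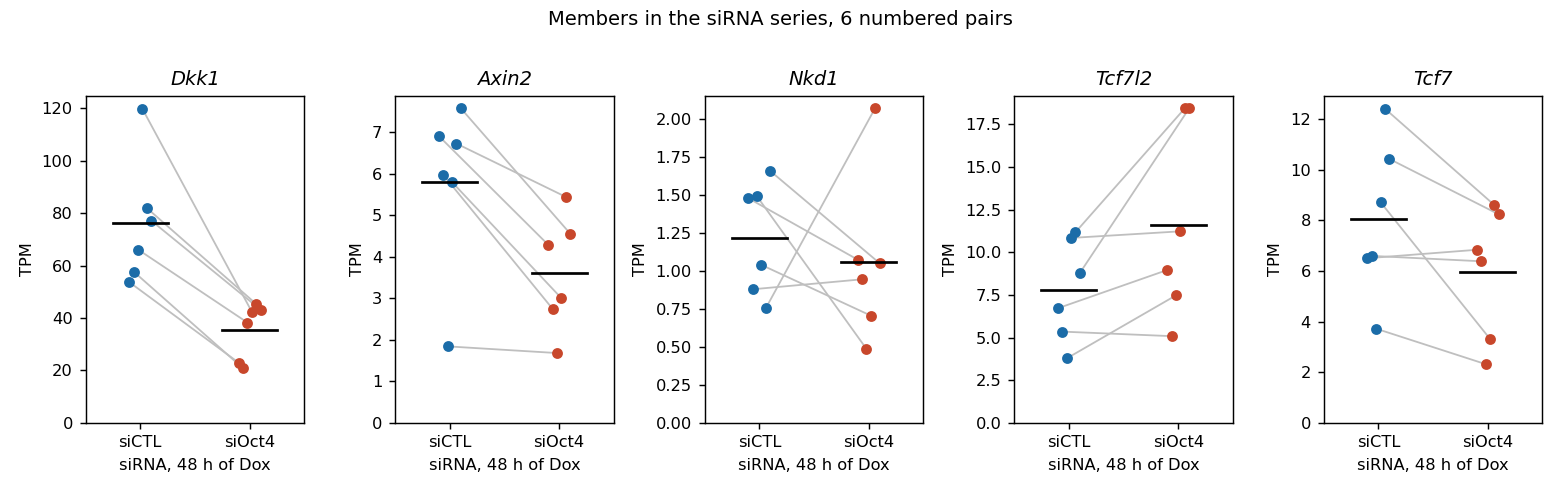
TPM of the 5 members present in the siRNA table in siCTL (blue) and siOct4 (red) libraries at 48 h of Dox, with grey lines joining libraries of the same number and black bars at the group means, on linear axes that start at 0. Dkk1 is lower in all 6 pairs, with means of 76.1 and 35.5 TPM, and the ranges of the other 4 genes overlap.

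The rest of the pathway was described with a list of 112 genes in 8 roles, all present in the induction table, of which 85 passed the filter. At 168 h 22 of the 85 were called higher and 15 lower, with a median log2 difference of 0.22 against 0.09 over all tested genes. At 16 h 5 were higher and 2 lower, with a median of 0.12 against 0.02. The share called was thus 37 of 85 at 168 h, next to 39.1% of all genes, and 7 of 85 at 16 h, next to 2.77%. Of the genes higher at 16 h, Dkk1, Sfrp5 and Wnt6 averaged 0.0744, 0.595 and 0.961 TPM at 0 h. Among those higher at 168 h, Frzb and Wnt4 averaged 0.122 and 0.227 TPM at 0 h. These genes passed the filter of 1 TPM only through other groups, so nothing is read from the higher counts. Sp5, called lower at 168 h, passed it only through its 0 h mean, so nothing is read from the lower counts either.

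The 7 list genes called at 16 h, named here after their values were seen, include Dkk1 and Axin2. Wnt6, a WNT ligand, had a mean of 0.961 ± 0.364 TPM before Dox, 3.33 ± 0.199 after 16 h, 9.42 ± 3.53 after 48 h and 0.836 ± 0.370 after 168 h (SD, n = 3 each). Its log2 difference at 16 h was 1.16 ± 0.20 (adjusted p = 0.000462). Sfrp5, a secreted frizzled-related antagonist, was highest at 48 h among these times too, going from 0.595 ± 0.114 TPM through 4.12 ± 0.649 and 7.28 ± 1.63 TPM to 0.562 ± 0.496 TPM (SD, n = 3 each). Ascl2, a target gene in intestinal stem cells, had means of 3.11 ± 0.665 TPM before Dox and 9.40 ± 2.34, 12.9 ± 0.7 and 0.501 ± 0.108 TPM after 16, 48 and 168 h (SD, n = 3 each).

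Notum and Sfrp4 were the list genes called lower at 16 h. Notum, an extracellular enzyme that inactivates WNT proteins by removing their lipid, went from 16.2 ± 5.84 TPM before Dox to 4.54 ± 0.981 after 16 h and 0.409 ± 0.161 after 168 h (SD, n = 3 each). Sfrp4 went from 4.16 ± 1.05 TPM to 0.98 ± 0.174 TPM at 16 h (SD, n = 3 each). Among the secreted antagonists called at 16 h, Dkk1 and Sfrp5 were higher and Notum and Sfrp4 lower. Dkk1 and Sfrp5 passed the filter only through groups other than 0 h, so nothing is read from the split in direction.

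The counts by role at 168 h stand against 39.1% of all genes called, 3396 higher and 2491 lower, or 2869 and 2926 after rescaling, and no role was tested against that share. At that time 3 of the 6 ligands tested were higher and 1 was lower. Wnt11, a ligand known mostly for signalling that does not use beta-catenin, went from 1.01 ± 0.24 TPM to 127 ± 58.7 TPM (SD, n = 3 each), a log2 difference of 5.87 ± 0.30 (adjusted p = 1.58e-12), and XEN cells held 22.2 TPM. Wnt4 was higher by 2.80 ± 0.25 (adjusted p = 5.67e-09), and Wnt7b fell by 2.17 on the log2 scale (SE 0.19, adjusted p = 3.69e-09). Wls, which carries WNT proteins to the cell surface, was higher by 3.03 ± 0.14 (adjusted p = 4.18e-13).

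Of the 15 receptors tested 6 were higher and 2 were lower. The largest changes among those above 5 TPM were Fzd5, at -2.57 ± 0.17 (adjusted p = 6.06e-11), Ryk, at 1.54 ± 0.06 (adjusted p = 1.55e-14), and Lrp6, the co-receptor that Dkk1 binds, at 1.31 ± 0.09 (adjusted p = 1.41e-10). The level of Lrp6 was 21.1 ± 1.21 TPM before Dox, 19.7 ± 1.85 after 48 h and 53.9 ± 2.86 after 168 h (SD, n = 3 each), the last at a time when Dkk1 was below its 48 h level. Of 6 genes of the R-spondin axis, 1 was lower and none higher. Of 11 secreted antagonists 3 were higher and 2 lower. Frzb, another frizzled-related antagonist, went from 0.122 ± 0.0731 TPM before Dox to 2.66 ± 1.9 after 72 h and 49.2 ± 14.5 after 168 h (SD, n = 3 each), and was higher at 168 h by 5.44 ± 0.31 (adjusted p = 5.37e-12).

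Inside the cell, 3 of 18 cytoplasmic components were higher and 1 was lower. They include Tnks, a tankyrase that marks Axin for degradation, at 1.83 ± 0.09 (adjusted p = 3.40e-13), Dvl3, a Dishevelled, at 1.76 ± 0.11 (adjusted p = 3.31e-11), and Cxxc5, an inhibitor of Dishevelled, at -1.94 ± 0.25 (adjusted p = 6.95e-07). Of 17 nuclear components 5 were higher and 3 lower. Beside Tcf7l2, Bcl9l, a co-activator that bridges beta-catenin, was higher by 2.75 ± 0.13 (adjusted p = 4.53e-13), and Tle4, a Groucho co-repressor of TCF factors, was lower by a log2 difference of -2.71 ± 0.12 (adjusted p = 2.47e-13). Of 19 target genes 2 were higher and 7 lower, with a median of -0.19. Sp5, among these targets, passed the filter only through its 0 h level, so nothing is read from the lower count or the median. Myc, a growth regulator listed as a target, had means of 29.9 ± 4.33 TPM before Dox, 60.4 ± 2.68 after 16 h and 1.84 ± 0.381 after 168 h (SD, n = 3 each), and its 168 h difference was -3.44 ± 0.14 (adjusted p = 6.58e-14). The markers of mesendoderm, where WNT signalling acts in the early embryo, summed to 2.64 to 3.23 TPM at 0 h and to no more than 11.7 TPM in any induction library.

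**Figure D4:**
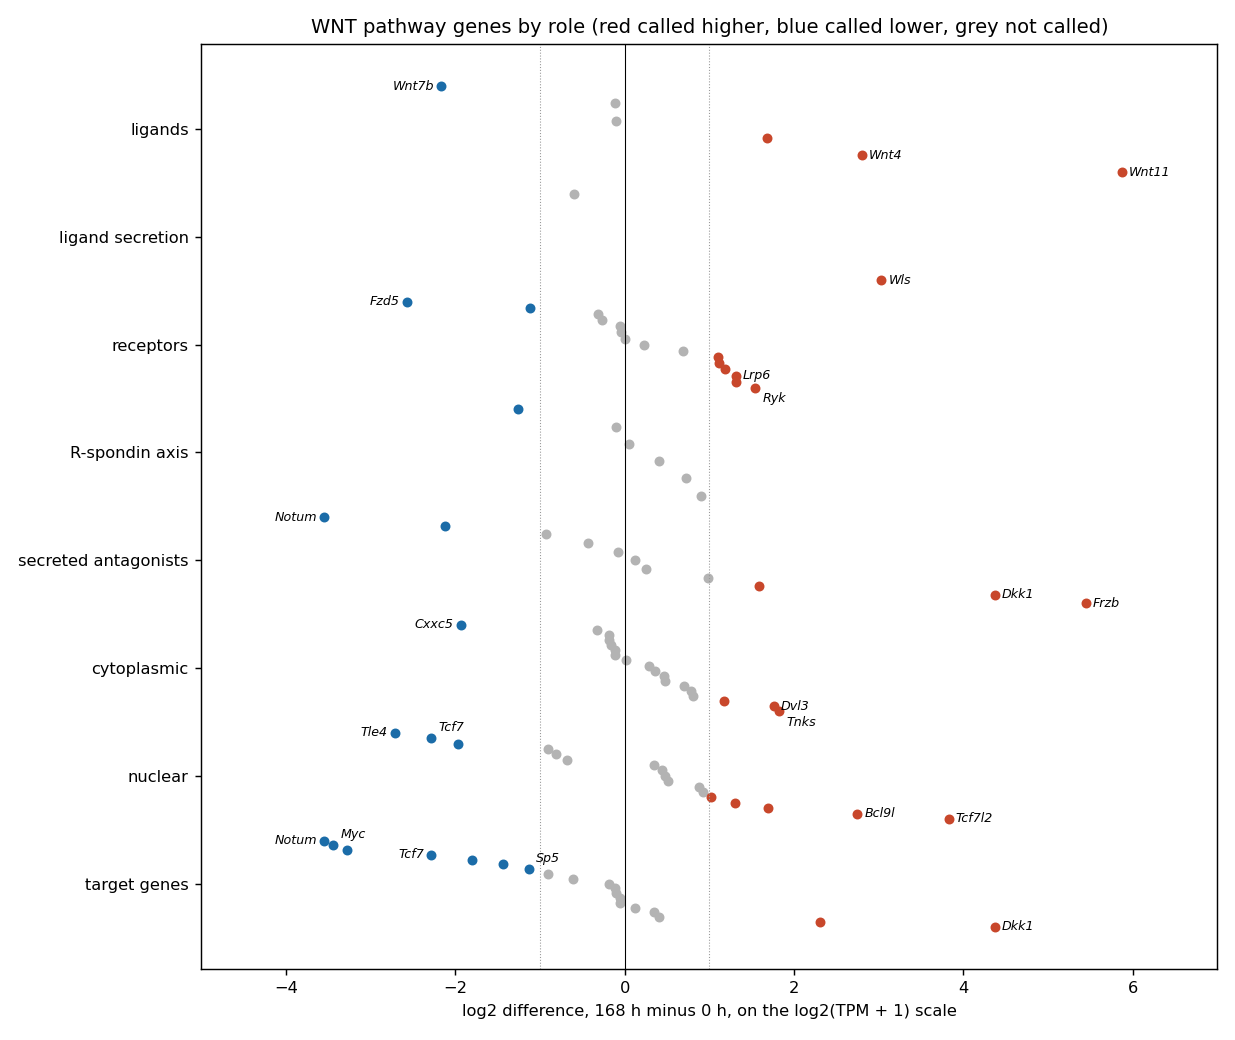
Log2 difference between 168 h and 0 h of Dox, on the log2(TPM + 1) scale, for the 85 WNT list genes that passed the filter, in rows by role (a gene with 2 roles is drawn in both), with dotted lines at the fold minimum of 1. Called genes lie on both sides in most roles, with Wnt11 (5.87), Frzb (5.44), Dkk1 (4.37) and Tcf7l2 (3.83) farthest to the right and Notum (-3.55) and Myc (-3.44) farthest to the left among the genes named.

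With Oct4 siRNA, 42 of the list genes were present and tested, and 1 was called higher and 2 lower, next to 2.67% of all genes (59 higher and 108 lower, or 144 and 153 after rescaling), with a median log2 difference of -0.11 against -0.12 over all genes. Ascl2 went from 3.39 ± 1.37 TPM in siCTL to 9.37 ± 4.27 TPM in siOct4 libraries (SD, n = 6 each; 1.20 ± 0.28 on the log2 scale, adjusted p = 0.0343 by limma). Porcn, the enzyme that adds the lipid to WNT proteins, went from 10.4 ± 3.49 TPM to 4.65 ± 1.51 TPM (SD, n = 6 each; -1.01 ± 0.24, adjusted p = 0.0335 by limma), and Dkk1 was the third. With the replicate block Cxxc5 was called as well, at -0.78 (adjusted p = 0.0225). With consecutive libraries averaged none of them was called. Leaving out single libraries gave 0 to 3 calls, with 0 without siCTL library 6 and 1 without siCTL library 1, 2, 4 or 5 or siOct4 library 1 or 4. Neither Tcf7 nor Tcf7l2 was called without the block or with the block alone. Tcf7l2 was called with block and rescaling together, as given above.

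The genes whose group means ran most like those of each member were found by Pearson correlation of mean log2(TPM + 1) over the 8 groups, among 9356 genes whose means spanned at least 1 on that scale. With 8 points and this many genes, high values are given as a description only. Foxq1 was closest to Dkk1 (r = 0.988), with means of 0.112 TPM before Dox, 106 after 48 h and 27.1 after 168 h, followed by Bag3 (0.977) and Hip1 (0.972). Shkbp1 (0.992), Nkd2 (0.982), a second Naked cuticle gene, and Trim14 (0.98) were closest to Axin2. Wnt6 (0.978) was among the 3 closest to Nkd1, with Pde3b (0.979) and Lmo1 (0.976).

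For the TCF/LEF factors, Tcf7l2 was most like Gm4524, Hcfc2 and Fam214b (each r = 0.999), and Tcf7 most like Dmc1 (0.996), Zfp518a (0.994) and Sorl1 (0.993). Tcf7l1 was most like Taf13 (0.994), Dstn (0.978) and 1700003M07Rik (0.977), which share its dip and return. Lef1 was most like 9330159F19Rik (0.992), Gad1 (0.991) and Soga3 (0.986), and for Sp5 Myo1f (0.997) and Gm10863 (0.996) are given.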

How the data were processed

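RNA-seq of 35 mouse libraries was analysed, 23 of Dox induction and 12 of siRNA. Per the labels and the study's methods, the authors sequenced stranded polyA libraries, aligned them to mm10 with STAR, quantified them with RSEM, dropped libraries that were outliers in a PCA and deposited TPM, whose columns sum to between 999764 and 999881 for the induction libraries. Versions of STAR and RSEM and the gene annotation are not given in the sources used here. TPM keeps no read depth, so precision rests on the spread between libraries. Group means and text classes of the authors' own tests in the siRNA data were not used.

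The members and lists were chosen with earlier results of these data known. For symbols on several rows (60), that of the highest mean was used. Genes averaging 1 TPM or more in any group were tested (15057 and 6264) on log2(TPM + 1) with limma 3.58.1 in R 4.3.3 (eBayes with trend and robust), over all groups of a table, with Benjamini-Hochberg adjustment over all genes. A gene was called at an adjusted p under 0.05 and an absolute log2 difference above 1 (induction) or 0.5 (siRNA). The fits were tested on simulated data. Named list genes were, per role, the 3 with the largest difference among those called at 168 h with a mean of 5 TPM or more at 0 or 168 h, and every list gene called with siRNA. The 3 genes most like each member were also named, except 1 that is not reported here. Positions are from GENCODE M21 and promoter windows from RefSeq (GRCm38.p6). Alternatives were another scaling, pseudocount, filter, block, fold minimum and set of groups and each library left out. The block with rescaling, pairs left out, averaged libraries and libraries 1 and 2 alone were chosen after seeing the data.

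Deviations from the group mean of same-numbered siCTL and siOct4 libraries correlated at 0.236 to 0.707 in the 6 pairs, so the numbers were taken to pair them. The study itself used a paired test for endogenous Gata6 over 6 independent knockdowns, without saying which libraries form a pair. The fit without the block leaves this pairing out.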

Additional observations from a re-analysis of the deposited data

Results flagged for a closer look

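Axin2 in the siCTL library 3 stood apart from the other 5 siCTL libraries, at 1.51 on the log2(TPM + 1) scale against 2.77 to 3.10 (gap to the nearest of 0.79 of the whole range, above Dixon's critical value for 6 samples). It was 1 of 10 sets of 6 libraries examined, and chance marks about 1 in 20. The paired siOct4 library 3 had the lowest Axin2 of its group as well, at 1.68 TPM.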

How the results depend on the processing

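Of 877 member differences of the induction series under other settings, 837 kept direction and side of the threshold, 8 lost and 21 gained a call and 11 changed sign, and of 608 with a library left out 569 kept both. With Oct4 siRNA 67 of 69 and 56 of 60 kept both. The cause of the changes was not tested. With a pseudocount of 0.1 the members called were 4 at 16 h, 5 at 24 h and 5 at 48 h, and the WNT list genes 13, 19 and 28. Without a fold minimum the members were 5, 7 and 7, and the list genes 24, 38 and 51, then 63 at 72 h, 58 at 96 h, 63 at 168 h and 44 between XEN and 168 h. With a mean of at least 5 TPM, which leaves fewer genes tested, members were 1 at 48 h and 3 each at 72 h, 96 h and in XEN against 0 h. Between XEN and 168 h 0 members were called after rescaling and with libraries 1 and 2 averaged, and 0 to 1 with a library left out.

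With Oct4 siRNA, the replicate block raised the genes called from 167 to 537 and rescaling to 297. Block and rescaling together gave 2 members and 7 list genes, averaged consecutive libraries 0 and 0, and the block without pair 4 gave 5 list genes. With a library left out, members were 0 to 1 and list genes 0 to 3. The genes called in all fell to 87 without siCTL library 6 and 90 without siCTL library 5, and were 322 without siCTL library 3. In the induction series, where same-numbered deviations correlated at 0.033 on average over 77 pairs, below what was required of a pairing (libraries numbered 3 nevertheless share a high Thy1), the replicate block changed no member's call (Dkk1 at 48 h 6.09).

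Signs changed only for differences that were not called. With libraries 1 and 2 only, Axin2 was 0.082 at 72 h and 0.36 at 168 h, Tcf7l1 from 24 to 48 h 0.12 and Lef1 from 72 to 96 h -0.00051. With libraries 1 and 2 averaged, Nkd1 at 96 h was -0.043, Tcf7l1 from 16 to 24 h 4.9e-05, Lef1 from 48 to 72 h -0.0038 and Dkk1 from 72 to 96 h -0.15. After rescaling, without and with the replicate block, Nkd1 at 96 h was -0.00077, and Tcf7l2 between XEN and 168 h was 0.0074 without it. Leaving out a library gave Axin2 -0.38 to 0.17 at 72 h and -0.32 to 0.24 at 168 h, Nkd1 -0.044 to 0.11 at 96 h and -0.00082 to 0.12 from 24 to 48 h, Tcf7l2 -0.084 to 0.014 at 24 h and -0.013 to 0.21 from 16 to 24 h, Lef1 -0.16 to 0.052 from 16 to 24 h and -0.0096 to 0.019 from 48 to 72 h, Tcf7l1 -0.16 to 0.094 from 24 to 48 h, Dkk1 -0.17 to 0.30 from 72 to 96 h, and Tcf7 -0.43 to 0.014 from 96 to 168 h.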
